A study of Rattus norvegicus with 8 samples.

Results

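miR-204 and miR-211 are a pair of microRNAs that share a seed, and they were followed here with both arms of their hairpins in the prostatic urethra of the rat after laser injury. The members were all miRNAs of the array whose name begins with rno-miR-204- or rno-miR-211-, which gave 4 of the 758 rat miRNAs measured, named rno-miR-204-5p, rno-miR-204-3p, rno-miR-211-5p and rno-miR-211-3p in the files. They were chosen by the measured difference between the groups and by their detection calls, so those values are given as a description, with no p-value and no call. Of the 4 members, miR-204-5p was detected on all 8 arrays, miR-211-3p on 2, and miR-204-3p and miR-211-5p on 0. miR-204-5p was lower in each injured animal than in each control animal, with a mean difference on the log2 scale of -1.14, or 2.20-fold.

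Male Sprague Dawley rats, 10 to 12 months old, had either a sham operation, in which the abdomen was opened but no laser was used (sham group), or a simulated transurethral laser prostatectomy, in which the lining of the prostatic urethra was vaporised (TULP group). Tissue was taken on day 5 from 4 animals of either group, with 1 array for each. No engineered allele is named for either group. Per the study's methods, the TULP animals also had the bladder opened to pass an endoscope, and the sham animals had an abdominal incision only, so the laser and the approach through the bladder cannot be told apart. The titles and treatment fields of the TULP samples name trauma, whereas their descriptions name a sham operation, and the groups here follow the titles. The 8 arrays used 1 dye and shared 1 slide and 1 scan. The slide had a pair of rows, which held sham 4 with TULP 1, 2 and 3 (row 1) and sham 1, 2 and 3 with TULP 4 (row 2). Sham arrays detected 146 to 156 miRNAs with a summed signal of 21075 to 37357, and TULP arrays detected 136 to 151 miRNAs with a summed signal of 16787 to 19464. The striated muscle marker miR-1-3p, the smooth muscle marker miR-143-3p, the endothelial marker miR-126a-3p and the epithelial marker miR-200b-3p were detected on all 8 arrays. Other miRNAs listed for these cell types were detected on no array. They were miR-499-5p, miR-208a-3p and miR-208b-3p (striated muscle), miR-145-3p (smooth muscle), miR-126a-5p (endothelial), and miR-184 and miR-182 (epithelial). With at least 1 marker of each type detected, the tissue was read as a mixture of cell types. In such bulk tissue, fewer cells of a type and less RNA per cell cannot be told apart.

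A microRNA is cut from a hairpin, and bases 2 to 8 of the mature strand, the seed, pair with messenger RNAs and lower their translation or stability. The hairpins of miR-204 and miR-211 lie in the genes of Trpm3 and Trpm1, which encode cation channels of the melastatin family, and both are known as intronic microRNAs. miR-204 is best known from the retinal pigment epithelium, the lens and other epithelia, and miR-211 from melanocytes and the retinal pigment epithelium. Neither is a usual marker of the urethra.

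The mature strands are shown because the members differ by few bases, which bears on what each probe can measure. RefSeq sequences of the rat build GRCr8 are given 5′ to 3′, with the seed in capitals.
miR-204-5p: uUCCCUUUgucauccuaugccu
miR-211-5p: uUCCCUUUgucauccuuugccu
miR-204-3p: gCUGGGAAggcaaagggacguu
miR-211-3p: gGCAAGGAcagcaaaggggg
The 5p strands were identical at 21 of 22 positions and shared the first 16. Counted from 1 at the 5′ end, the difference was A17U, with the base of miR-204-5p first. Of the 693 mature rat miRNAs in that sequence table, only miR-204-5p and miR-211-5p have the seed UCCCUUU, so these 2 make up the whole seed family in the table. The 3p strands had different seeds, and their longest shared run was 8 bases.

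The hairpins place the strands in the genome, and capitals mark the mature strands, 5p first.
Mir204: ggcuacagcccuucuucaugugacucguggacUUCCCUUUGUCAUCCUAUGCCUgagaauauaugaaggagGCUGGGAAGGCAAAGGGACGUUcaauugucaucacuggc
Mir211: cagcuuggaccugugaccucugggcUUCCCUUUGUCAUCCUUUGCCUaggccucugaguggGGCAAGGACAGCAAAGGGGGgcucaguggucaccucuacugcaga
In GRCr8, the Mir204 hairpin lies at chr1:229743461-229743570 on the plus strand, within Trpm3 at chr1:229099741-229984172. It begins 643.7 kb after the start of that gene of 884.4 kb. The Mir211 hairpin lies at chr1:127189328-127189433 on the plus strand, within Trpm1 at chr1:127130686-127247219. It begins 58.6 kb after the start of that gene of 116.5 kb. Both host genes are on the plus strand too, and each held 1 miRNA gene. The hairpins lie 102.6 Mb apart on the same chromosome. Exon boundaries were not used here.

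The 4 members were measured by 11 probes of 13 to 21 bases. The probes of the 5p strands are shown because they differ from each other at 1 base, in capitals, which faces position 17 of the mature strand.
miR-204-5p, 20 bases: aggcaTaggatgacaaaggg
miR-204-5p, 19 bases: aggcaTaggatgacaaagg
miR-211-5p, 21 bases: aggcaAaggatgacaaaggga
miR-211-5p, 20 bases: aggcaAaggatgacaaaggg
miR-211-5p, 19 bases: aggcaAaggatgacaaagg
Each of these 5 probes pairs without mismatch with its own miRNA up to base 22 and has 1 mismatch with the other. The miR-211-5p probes of 19, 20 and 21 bases could pair with miR-204-5p over 13, 14 and 15 bases in a row, and no probe of a miRNA outside this pair of hairpins over more than 8. The 3p probes were shorter, and those of miR-211-3p are shown because that strand was detected in TULP animals.
miR-211-3p, 14 bases: ccccctttgctgtc
miR-211-3p, 13 bases: ccccctttgctgt
They pair with bases 7 to 20 and 8 to 20 of miR-211-3p. The longest run that the target of the 14-base probe shared with another mature rat miRNA of the table was 8 bases. In the build of the files, rn4, the 20-base probe of miR-204-5p is placed at chr1:226013029-226013047 and the 14-base probe of miR-211-3p at chr1:118642467-118642479, as the files give them.

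Detection was called where the total signal of a probe, as the scanner software gave it, exceeded 3 times its error. The 20-base probe of miR-204-5p passed on every array, at 7.43 to 9.02 times its error on sham arrays and 3.99 to 5.32 times on TULP arrays. All 32 spots of this probe on the 4 sham arrays were well above background, against 14 of 32 on the TULP arrays. Its 19-base probe passed on sham 4 alone, at 3.50 times the error, and sham 3 lay just under the threshold at 2.99 times. On TULP arrays the 19-base probe reached 1.13 to 1.33 times its error. The array with the weakest detected signal of miR-204-5p was thus TULP 2, at 3.99 times the error.

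**Figure D1:**
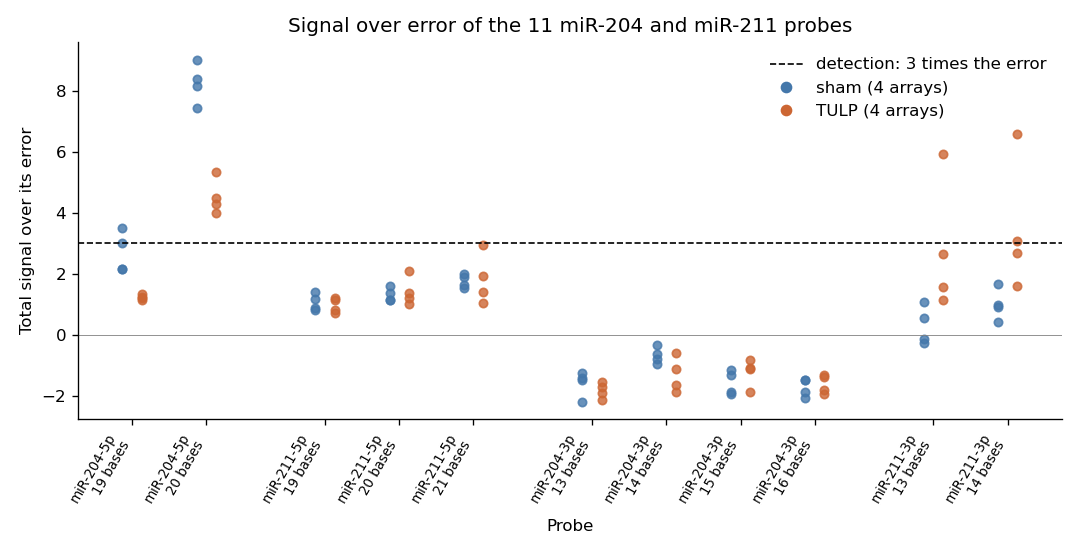
Total signal over its error (vertical axis, no unit) for each of the 11 probes (horizontal axis), with 1 point per array, sham and TULP side by side, and a dashed line at the detection threshold of 3. The 20-base probe of miR-204-5p passed on all 8 arrays, the miR-211-5p and miR-204-3p probes passed on 0, and the miR-211-3p probes passed on TULP arrays only.

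The signal of miR-204-5p, the sum of its detected probes on the linear intensity scale, was 15.9, 14.5, 17.6 and 30.5 on sham 1, 2, 3 and 4. On TULP 1, 2, 3 and 4 it was 8.94, 5.66, 6.72 and 5.97. The groups did not overlap, sham 4 was the highest of all arrays, and TULP 1 was the highest of its group. Group means were 19.6 ± 7.36 (SD, n = 4) for sham and 6.82 ± 1.48 (SD, n = 4) for TULP. Only on sham 4 did the 19-base probe add to the sum, with 4.62. The 20-base probe on its own gave 15.9, 14.5, 17.6 and 25.9 on the sham arrays and the values above on the TULP arrays, so the groups did not overlap on this probe either. The 19-base probe on its own gave 2.50, 2.88, 3.62 and 4.62 on sham arrays and 1.79, 1.48, 1.61 and 1.69 on TULP arrays, again without overlap, although 7 of these 8 totals were below the detection threshold. Without normalization the median difference of all tested miRNAs was itself -0.555 on the log2 scale. How many other miRNAs or probes lacked overlap on this scale was not counted, so nothing is read from it.

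**Figure D2:**
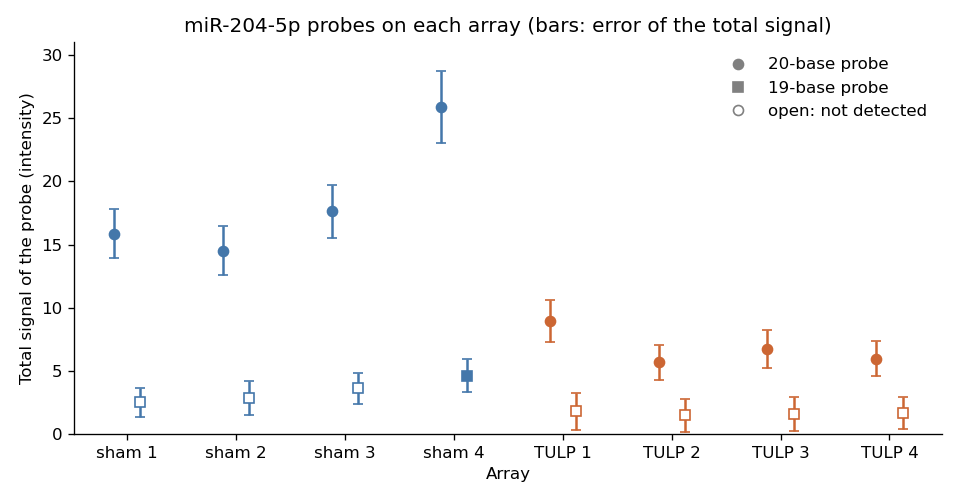
Total signal of each miR-204-5p probe (vertical axis, linear intensity, from 0) on each array (horizontal axis), with bars for the error of the total signal and open symbols where the probe was not detected. The 20-base probe lay between 14.5 and 25.9 on sham arrays and between 5.66 and 8.94 on TULP arrays.

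Because the summed signal of the TULP arrays was lower than that of every sham array, miR-204-5p was also set against the signal of its own array. It made up 7.53, 5.74, 6.02 and 8.17 per 10000 of the summed signal on sham 1, 2, 3 and 4, and 4.59, 3.23, 4.00 and 3.43 per 10000 on TULP 1, 2, 3 and 4. The share was 1.80 times as high in the sham mean as in the TULP mean, and the groups did not overlap. How many other miRNAs had shares without overlap was not counted. Counted from the brightest miRNA, it stood at place 98, 99, 91 and 81 on the sham arrays and at place 113, 130, 121 and 130 on the TULP arrays. Among the stored totals of the files, which give other miRNAs higher values, it stood at place 111 to 130 on sham and 132 to 145 on TULP arrays. Either way it was in the dimmer part of the detected miRNAs, and lower in the order on each TULP array.

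After quantile normalization, the log2 signal of miR-204-5p was 3.82, 3.79, 4.05 and 4.41 on sham 1, 2, 3 and 4. It was 3.30, 2.60, 3.01 and 2.60 on TULP 1, 2, 3 and 4, where the equal values of TULP 2 and TULP 4 come from equal ranks. All 4 TULP arrays lay below all 4 sham arrays. The difference, TULP minus sham, was -1.14 with an SE of 0.212 in the limma fit. Without sham 4 it was -0.983, under 2-fold, and without TULP 1 it was -1.29. Within slide row 1 the difference was -1.44, with 1 sham against 3 TULP arrays, and within row 2 it was -1.28, with 3 sham arrays against 1 TULP array. The scale of the arrays moved the size, from -0.966 with the 75th percentile to -1.71 with the labelling spike-ins, and normexp background correction with an offset of 50 gave -0.184. That offset is added to every spot before the log2 step, which makes log2 differences of dim miRNAs smaller. The highest mean spot signal of a miR-204-5p probe, the 20-base probe on sham 4, was 47.9.

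**Figure D3:**
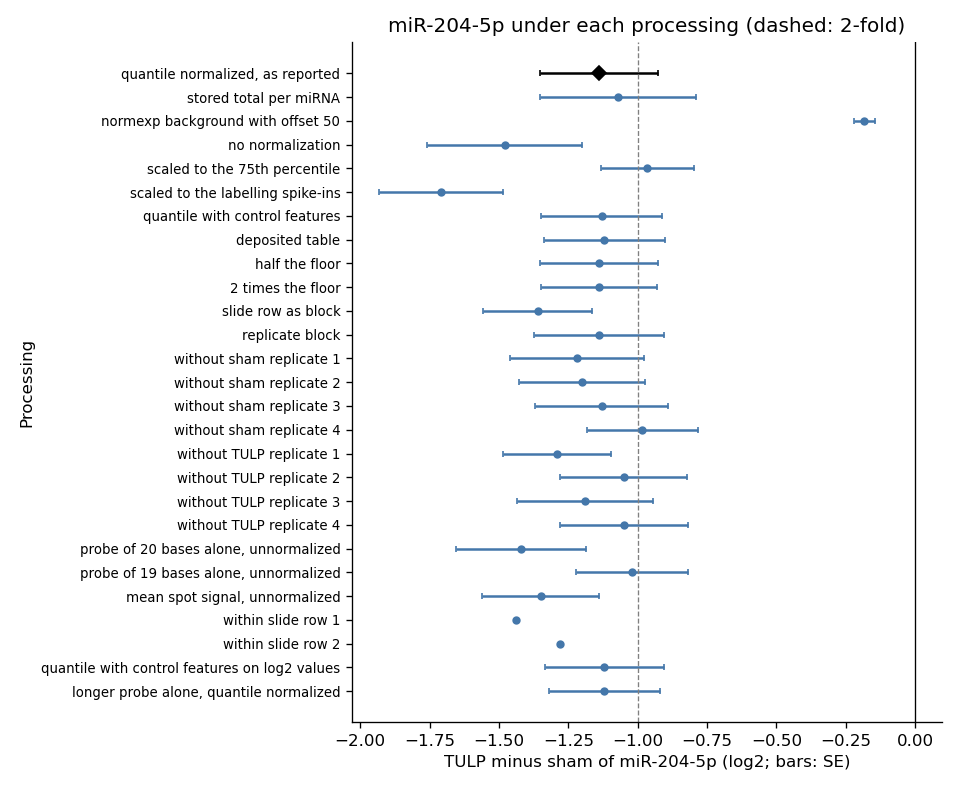
TULP minus sham difference of log2 miR-204-5p signal (horizontal axis) under each processing and without each array (vertical axis), with bars for the SE where a fit gave one, a dashed line at 2-fold and a solid line at 0. All values lay below 0, from -1.71 to -0.184.

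Of the 4 members, 1 could enter the fit over all miRNAs, since only miR-204-5p was detected on at least 4 of the 8 arrays. No call is given for it, since this contrast chose it. As background, a miRNA was called at a limma Benjamini-Hochberg adjusted p under 0.05 and a change of more than 2-fold. Of the 151 miRNAs tested, 14 were called (9.27%), 8 of them higher and 6 lower in TULP (3.97% lower). In 22 of the 151 (14.6%), all TULP arrays lay below all sham arrays, as they did for miR-204-5p. Its difference was the 7th lowest of 151, and the median of all was -0.0227. Nothing about miR-204-5p is read from these counts.

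**Figure D4:**
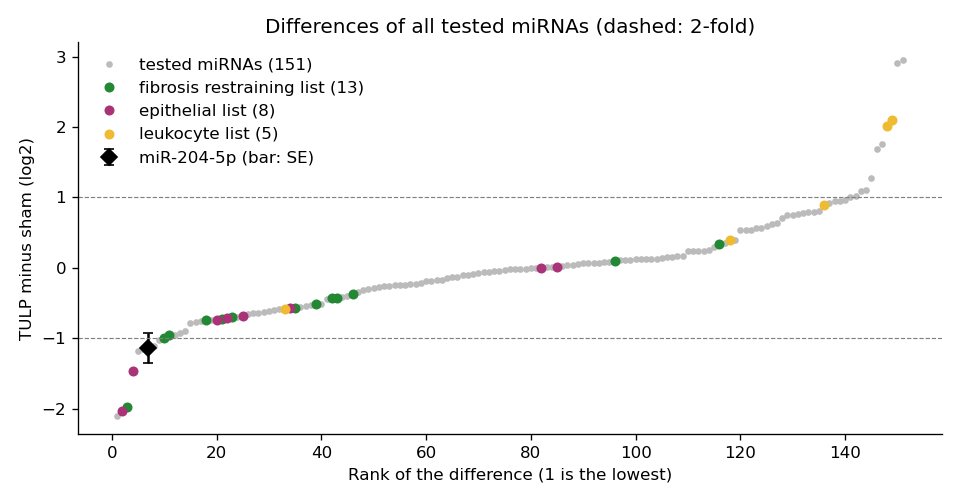
TULP minus sham difference of log2 signal (vertical axis) of the 151 tested miRNAs in order of size (horizontal axis), with miR-204-5p (diamond, bar for the SE) and members of 3 lists in colour, and dashed lines at 2-fold. miR-204-5p stood at place 7 from the lowest, at -1.14.

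miR-211-5p, the other member of the seed family, was detected on 0 of 8 arrays. Its 21-base probe gave total signals of 1.42, 1.28, 1.38 and 1.29 on sham 1, 2, 3 and 4 and 1.26, 0.858, 2.58 and 1.54 on TULP 1, 2, 3 and 4. TULP 3 was the highest, at 2.94 times its error, just under the threshold, and the groups overlapped. Its 20-base probe reached at most 2.09 times its error, also on TULP 3, and its 19-base probe at most 1.40 times. The mean total of the 19-base probe was 0.970 ± 0.232 (SD, n = 4) on sham and 0.971 ± 0.235 (SD, n = 4) on TULP arrays. The miR-211-5p probes, which have 1 mismatch with miR-204-5p, thus stayed under the threshold on the sham arrays, where the miR-204-5p probe was at its highest. None of the 64 sham spots and none of the 64 TULP spots of miR-211-5p was well above background.

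The 3p strands are the opposite arms of the hairpins and are often the less abundant ones. miR-204-3p was detected on 0 of 8 arrays, and all 4 of its probes had negative totals after background subtraction on every array, between -1.51 and -0.220. No direction between the groups can be given for it.

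miR-211-3p was detected on 0 of 4 sham arrays and on TULP 3 and TULP 4. The totals of its 14-base probe were 1.12, 2.23, 0.503 and 1.14 on sham 1, 2, 3 and 4, and 2.31, 3.61, 11.6 and 4.08 on TULP 1, 2, 3 and 4. Each TULP array was above each sham array on this probe, TULP 3 stood far above the others, and TULP 1 exceeded sham 2 by less than the error of either. The totals of its 13-base probe were -0.296, 1.41, 0.630 and -0.171 on sham arrays and 2.22, 1.52, 9.84 and 3.45 on TULP arrays, again without overlap. Here TULP 2 exceeded sham 2 by less than the error of either. The share of all probes without such overlap was not counted, so nothing is read from it. On TULP 3 both probes passed, at 6.57 and 5.91 times the error, and their sum was 21.5, or 12.8 per 10000 of the summed signal, at place 72 of 147 detected miRNAs. On TULP 4 the 14-base probe passed at 3.08 times the error and the sum was 4.08, at place 144 of 149. The stored total of the files on this array was 13.2, at place 131, whereas on TULP 3 it equalled the sum of the probes, at place 111. On TULP 2 the 14-base probe was at 2.68 times its error. The mean signal over all spots was 1.53 ± 1.30 (SD, n = 4) on sham and 9.04 ± 7.41 (SD, n = 4) on TULP arrays.

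With 2 detections, miR-211-3p could not enter the fit, and no fold is given. A threshold of 4 times the error left 1 array, TULP 3, and one of 2 times gave 3 arrays, all TULP. The 5p and 3p strands of the Mir211 hairpin thus differed in detection, and TULP 3 was the array with the highest totals of the 21-base and 20-base miR-211-5p probes too. No other miRNA was detected on TULP 3 and TULP 4 alone. However, 4 miRNAs, miR-211-3p included, were detected on 2 TULP arrays and on no sham array. Likewise, 4 with miR-211-3p included were detected on TULP 3 and on no sham array. Of the 185 miRNAs detected on at least 1 array, 11 were detected on TULP arrays and on no sham array. In the other direction, 19 were detected on sham arrays and on no TULP array.

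The study's primer table lists a forward primer for miR-204-5p, shown because its letters do not separate the pair. Capitals mark the part that equals the mature strand.
miR-204-5p forward primer: cgcagTTCCCTTTGTCATC
Its last 14 bases equal positions 1 to 14 of miR-204-5p and also of miR-211-5p, and the position at which the strands differ, 17, lies beyond them. No value of that assay was used.

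The miRNAs whose log2 signal was most like that of miR-204-5p over the 8 arrays were miR-30a-3p (Pearson r = 0.945), miR-195-5p (0.928), miR-30d-5p (0.897), let-7g-5p (0.892) and miR-30c-5p (0.881). All points share their arrays, and much of each r is the step between groups. TULP minus sham was -0.90 for miR-30a-3p, -0.51 for miR-195-5p, -0.37 for miR-30d-5p, -0.54 for let-7g-5p and -0.71 for miR-30c-5p on the log2 scale, each smaller than that of miR-204-5p. With the group means removed, other miRNAs led, namely miR-23b-3p (r = 0.866), miR-125a-5p (0.829), miR-15b-5p (0.803), miR-25-3p (0.755) and miR-331-3p (0.752), while miR-30a-3p had 0.680. Of the 5 most alike over all arrays, 1 to 4 were still among the 5 under another signal, scale or floor, so the order is loose.

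**Figure D5:**
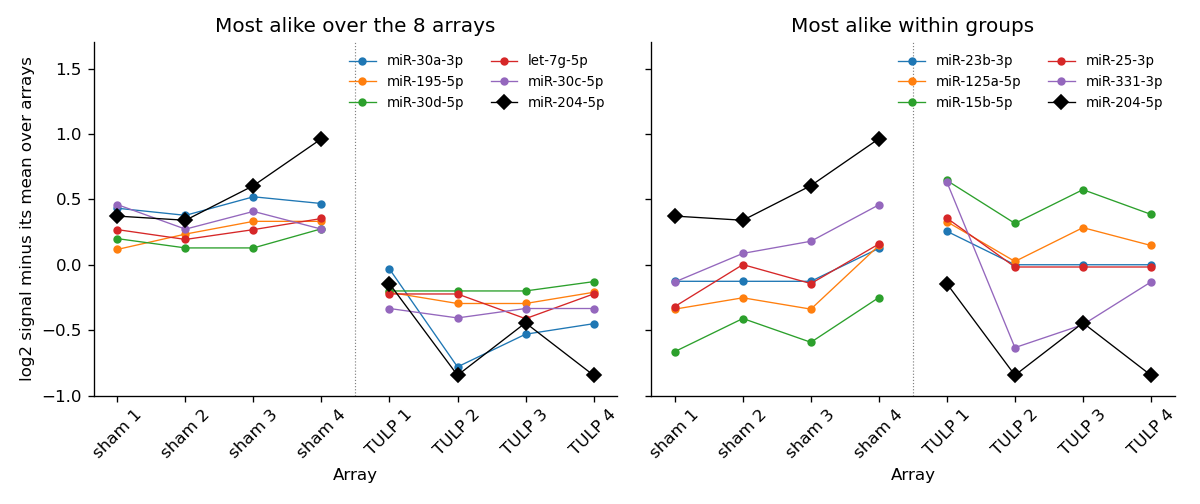
log2 signal minus its mean over the 8 arrays (vertical axis) on each array (horizontal axis), for miR-204-5p (diamonds) and the 5 miRNAs most alike over all arrays (left) or within groups (right), with lines joining values of a miRNA within a group. On the left, all 6 miRNAs were higher on each sham array than on each TULP array.

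To set miR-204-5p beside the other miRNAs of its usual surroundings, lists of miRNAs known from epithelium, eye, fibrosis, leukocytes and muscle were counted. Of all 151 miRNAs, 25 (16.6%) passed a limma adjusted p of 0.05 as lower and 21 (13.9%) as higher. The lists were chosen with earlier results of these data known, so their counts beside these shares are a description and not a test. Among 13 epithelial miRNAs, such as the miR-200 family, which maintains epithelial identity, 8 were tested, 0 passed in either direction, and the median difference was -0.70 against -0.0227 for all. The largest differences were -2.03 for miR-375-3p (adjusted p = 0.0675), -1.46 for miR-200c-3p (adjusted p = 0.0753), -0.74 for miR-183-5p (adjusted p = 0.446) and -0.71 for miR-200a-3p (adjusted p = 0.0874). The summed signal of the list was 652, 588, 685 and 496 on sham 1, 2, 3 and 4 and 950, 475, 418 and 390 on TULP 1, 2, 3 and 4. This sum is on the linear scale, so it follows the brightest miRNAs most. The brightest tested was miR-200b-3p, with a sham mean of 8.36 on the log2 scale and a difference of 0.0006. The sham means of miR-375-3p and miR-200c-3p were 3.77 and 4.50. TULP 1 was the highest array for this sum, and sham 4 was the lowest sham array. For miR-204-5p, TULP 1 was the highest TULP array and below every sham array, and sham 4 was the highest of all arrays. The part of epithelium in the difference of miR-204-5p was not tested, and single arrays cannot show it. Without TULP 1, 5 of the 8 passed as lower, beside 34 of all 151 miRNAs (22.5%), and the median was -1.02. With all arrays, 2 of the 8 passed as lower with the 75th percentile, beside 18.5% of all miRNAs, and 1 with the stored totals, beside 13.2%. Without normalization 4 passed, beside 31.8% of all, and with the spike-ins 6 passed, beside 54.3%, so these counts moved with those of the whole array.

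Of 7 miRNAs on the eye list, 2 were tested and 0 passed, miR-183-5p, given above, and miR-205 with -0.68 (limma adjusted p = 0.285). Both are also on the epithelial list, so they add no miRNA to those tested above. miR-184, miR-182, miR-124-3p and miR-9a-5p, which are abundant in eye or neural tissue, were detected on 0 of 8 arrays. The summed signal of this list was 24.2 to 34.8 on sham and 7.86 to 40.5 on TULP arrays. Without TULP 1 both tested miRNAs passed as lower, beside 22.5% of all miRNAs.

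Of 14 miRNAs known to restrain collagen and matrix genes in other tissues, 13 were tested, 9 fell, 0 rose and 4 did not pass, with a median of -0.56. Among those that fell, miR-30a-5p, miR-30b-5p, miR-30c-5p, miR-30d-5p and miR-30e-5p belong to the same family. miR-133a-3p and miR-133b-3p are also on the striated muscle list, and the rest were miR-101a-3p and miR-26b-5p. The 4 that did not pass were miR-29a-3p (0.10), miR-29b-3p (0.34), miR-29c-3p (-0.52) and miR-26a-5p (-0.42). miR-101a-3p was detected on 4 of 4 sham and 0 of 4 TULP arrays (limma adjusted p = 0.0124) and was the 1 member of the list called. miR-30e-5p fell by 1.00 (adjusted p = 0.00539), miR-133a-3p, also a muscle miRNA, by 0.96 (adjusted p = 0.00605) and miR-30b-5p by 0.75 (adjusted p = 0.0257), all on the log2 scale. The count was 5 with a replicate block, 6 with the slide row as a block and 6 with the stored totals, where 12.6%, 9.93% and 13.2% of all miRNAs passed as lower. Of 6 miRNAs known to promote fibrosis, 4 rose, 0 fell and the median was 0.90. miR-21-5p, a miRNA of injured and fibrotic tissue, rose by 1.76 (adjusted p = 0.000785), miR-34a-5p by 0.95 (adjusted p = 0.0161) and miR-214-3p by 0.92 (adjusted p = 0.0161), whereas miR-155-5p differed by 0.89 without passing (adjusted p = 0.236). Without normalization, with the spike-ins and with the stored totals, 1 of the 6 passed as higher, and with the slide row as a block 2 did, where 3.31%, 3.31%, 5.30% and 8.61% of all miRNAs passed as higher.

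Of 6 leukocyte miRNAs, 5 were tested and 2 rose, miR-223-3p of myeloid cells by 2.10 (adjusted p = 0.00313) and miR-142-3p of blood cells by 2.01 (adjusted p = 0.0163) in the limma fit. miR-155-5p, given above, and miR-150-5p of lymphocytes, with -0.59 (adjusted p = 0.0737), did not pass. All TULP arrays lay below all sham arrays for miR-150-5p, and it passed as lower without normalization, with the spike-ins and with the slide row as a block. The list's median was 0.89, and its summed signal was 54.8 to 78.0 on sham and 96.5 to 168 on TULP arrays, without overlap. Without sham 4, without TULP 2 or in the deposited table, 1 of the 5 passed as higher, where 9.93%, 9.27% and 11.9% of all miRNAs did. Of 7 striated muscle miRNAs, 4 were tested and 3 fell, miR-133a-3p, miR-1-3p by 0.74 (adjusted p = 0.0202) and miR-133b-3p by 0.72 (adjusted p = 0.0163), whereas miR-206-3p differed by 0.25 (adjusted p = 0.795). The list's median was -0.73, its sums were 4040 to 5660 on sham and 2640 to 4640 on TULP arrays, and 1 of the 4 passed as lower with the slide row as a block or with the stored totals. Of the smooth muscle pair tested, miR-145-5p with -0.63 (adjusted p = 0.356) and miR-143-3p with 0.07 (adjusted p = 0.905), 0 passed, and the endothelial miR-126a-3p differed by 0.01 (adjusted p = 0.992). With the labelling spike-ins, the smooth muscle pair and miR-126a-3p all passed as lower, beside 54.3% of all miRNAs. The part of these cell types in the difference of miR-204-5p was not tested.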

How the data were processed

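Total RNA of 8 rat tissue samples was read on an Agilent array with 1 dye. Per the file headers, the authors' scanner software, Agilent Feature Extraction 10.7.1.1, gave background-subtracted intensity values per spot, and a total signal with its error per probe and per miRNA. The deposited series table holds log2 values that the authors quantile normalized with 22 control features, with undetected miRNAs mostly at -3.32.

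The signal of a miRNA was rebuilt as the sum of the totals of probes above 3 times their error (0.1 where none was), because 352 of 1191 stored totals exceeded that sum. Signals of 758 miRNAs were quantile normalized and log2 transformed, with lower values set to 1.94 (log2 0.96), the floor. Differences of the 151 miRNAs detected on at least 4 arrays were computed by lmFit and eBayes (limma 3.58.1, R 4.3.3) with Benjamini-Hochberg adjustment. Scripts were tested on simulated data. With 4 arrays a group, their number limits the precision. Replicates were separate animals per the study's methods, and the sample titles number tissues.

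Named miRNAs were the members, the 5 most correlated over all arrays and the 5 within groups, and, of each list, those called and up to 4 with the largest difference. For the fibrosis restraining list, all tested miRNAs were named. Members and lists (epithelial, eye, fibrosis restraining and promoting, leukocyte, striated muscle, smooth muscle, endothelial) were chosen with earlier results of these data known. Mature and hairpin sequences came from RefSeq (GRCr8), and 685 of 758 array names had one.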

Additional observations from a re-analysis of the deposited data

Results flagged for a closer look

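In 9 of the 60 sets of 4 arrays examined, 1 array stood far from the other 3 by Dixon's gap-to-range rule, where chance gives about 5%, or 3. No set of miR-204-5p or of the probes of the members was among them. In the TULP group, replicate 1 stood apart for the epithelial list, with a summed signal of 950, and for the fibrosis restraining list, with 1880. In the sham group, replicate 2 stood apart for the striated muscle list, with 4040. For the miRNAs most like miR-204-5p, the log2 signal stood apart at 6.09 for miR-30d-5p on TULP 4, 7.40 for let-7g-5p on TULP 3, 6.91 for miR-30c-5p on TULP 2, 9.67 for miR-23b-3p on sham 4, 9.80 for miR-23b-3p on TULP 1 and 5.46 for miR-25-3p on TULP 1. In these 6 sets the other arrays held equal values, since quantile normalization gives equal ranks equal values.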

How the results depend on the processing

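The difference of miR-204-5p kept its sign under all 18 alternatives and without each array in turn. It moved by less than the spread between replicates under 15 of the 18. Among these, a lower and a higher floor left it at -1.14 by construction, since its values lay above both. The replicate block did so too, since the groups were balanced over the replicate numbers. The difference was -0.184 with normexp, -1.48 without normalization and -1.71 with the labelling spike-ins. The median of all miRNAs was -0.555 without normalization and -0.784 with the spike-ins. Leaving out 1 array gave -1.29 to -0.983, and the change stayed over 2-fold in 7 of 8 such fits, not without sham 4. The scaling to the 75th percentile gave -0.966, also under 2-fold. The 14 miRNAs called became 1 with normexp, 34 without normalization (5 higher, 29 lower), 53 with the spike-ins (5 higher, 48 lower) and 8 among miRNAs detected on all 8 arrays (5 higher, 3 lower). With an array left out they numbered 10 to 22, with 22 without TULP 1. The cause of these moves was not tested. The fit with the replicate block gave -1.14 for miR-204-5p and 11 calls. The study's methods divided these animals at random into the groups and name no pairs. With the group means removed, same-numbered arrays correlated at 0.128, -0.0968, 0.269 and -0.102. Other pairs of arrays were not compared, so these values cannot show whether the numbers pair animals. The methods' t-test on the deposited table gave 17 calls unadjusted and 13 after Benjamini-Hochberg adjustment.

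Of the 5 miRNAs most like miR-204-5p, 1 remained with the stored totals, 2 with normexp, 3 without normalization, 3 with the 75th percentile, 1 with the spike-ins, 3 with control features in the quantiles and 2 in the deposited table. Without 1 array, 2 to 4 remained. Detection of miR-211-5p became 1 array at 2 times the error, and that of miR-211-3p 1 array at 4 times. Within-row values, quantiles on log2 values, the longer probe alone, the list counts under other settings and the repeats of the likeness were chosen after seeing the data. Signal over background limits miR-211-5p and miR-204-3p, for which a level under the detection threshold would not be seen.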
